A study of Homo sapiens with 19 samples.

Results

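The 300 largest stitched clusters of distal H3K27ac in vehicle-treated MOLM-13 cells are described here. They were chosen by H3K27ac coverage in the DMSO libraries: the peak lists of the 2 DMSO libraries were pooled and merged into 24713 regions, and the 11277 regions within 2 kb of a transcription start site (TSS) of a protein-coding or long non-coding gene were dropped. The remaining 13436 distal regions were stitched where gaps were 12.5 kb or less, and of the 6389 stitched regions the 300 with the most covered base pairs (4.70%) were kept. Each is called here a cluster, the merged H3K27ac regions inside it its constituents, and the bases between constituents its gaps. A cluster is named by the protein-coding gene with the nearest TSS and a number, which says nothing about the gene it acts on.

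MOLM-13 is a human acute myeloid leukaemia line with an MLL-AF9 fusion and an internal tandem duplication of FLT3. The cells were profiled by CUT&RUN, in which an antibody-directed nuclease releases fragments that carry a mark, for H3K27ac, H3K4me2 and H3K4me3. For each mark 2 libraries came from cells given Corin and 2 from cells given the vehicle DMSO, 12 in all, after 24 h. The labels give 0.1 µM for both groups, and what that dose means for DMSO is unclear. Corin joins an inhibitor of class I histone deacetylases to one of the demethylase LSD1, both enzymes of the CoREST complex. The cells are 1 line without primary cells, the labels do not say whether replicates were separate cultures, and p-values may therefore measure technical spread only.

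Active enhancers carry acetylated histone H3 lysine 27 and methylated lysine 4, and long clusters of them, often called super-enhancers, are known for lying near genes that define a cell's identity. LSD1 removes methyl groups from H3K4me1 and H3K4me2, and the deacetylases of CoREST remove acetyl groups. In myeloid leukaemia LSD1 is known to be brought to enhancers by the repressor GFI1 and to hold back genes bound by PU.1 and C/EBP factors. Super-enhancers are usually ranked by read signal. The deposited lists hold peak positions and scores without reads, so the ranking here is by covered length.

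The centres of the widest constituents of the leading clusters are shown for orientation, since these are the places with the longest unbroken acetylation in each. They are the central 300 bp of the widest constituent in 3 of the 4 largest clusters and in clusters with the largest H3K4me2 differences, from the plus strand of hg38, 5′ to 3′, with matches to the motifs listed further down in capitals. RREB1.1 (chr6:7164909-7165208, intron of RREB1) holds a STAT match. MBNL1.1 (chr3:152199930-152200229, in no protein-coding gene, 4007 bp from a TSS) holds a C/EBP match and a stretch that fits both the AP-1 and the MEIS-HOXA9 motif. AHRR.1 (chr5:373253-373552, intron of AHRR) and CDK6.1 (chr7:92783675-92783974, intron of CDK6) hold none. ELF1.1 (chr13:40961988-40962287, intron of ELF1) holds a RUNX and a GFI1 match. SRGN.1 (chr10:69068440-69068739, in no protein-coding gene) holds an IRF and a C/EBP match. The H3K4me2 differences are those of whole clusters and not of these constituents. The constituent of CDK6.1 had 0 bp of H3K4me2 in all 4 libraries. That of SRGN.1 had 204 bp in Corin replicate 1 alone.
RREB1.1: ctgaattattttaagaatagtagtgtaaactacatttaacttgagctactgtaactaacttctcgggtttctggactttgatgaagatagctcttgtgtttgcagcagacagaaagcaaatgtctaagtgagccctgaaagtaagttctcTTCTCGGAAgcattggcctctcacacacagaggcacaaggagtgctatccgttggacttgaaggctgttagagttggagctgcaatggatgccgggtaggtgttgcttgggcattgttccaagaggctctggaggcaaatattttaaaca
MBNL1.1: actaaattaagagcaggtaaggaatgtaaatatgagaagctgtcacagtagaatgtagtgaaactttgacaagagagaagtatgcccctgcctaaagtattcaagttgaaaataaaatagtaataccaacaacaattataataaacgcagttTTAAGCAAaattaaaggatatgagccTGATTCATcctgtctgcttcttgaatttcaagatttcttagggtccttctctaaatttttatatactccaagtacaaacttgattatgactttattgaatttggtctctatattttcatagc
AHRR.1: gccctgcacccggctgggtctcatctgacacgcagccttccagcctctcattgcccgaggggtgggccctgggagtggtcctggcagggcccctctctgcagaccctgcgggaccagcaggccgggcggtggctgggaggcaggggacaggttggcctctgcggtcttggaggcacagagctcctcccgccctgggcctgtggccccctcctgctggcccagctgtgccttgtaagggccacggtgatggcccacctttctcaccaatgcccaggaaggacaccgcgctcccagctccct
ELF1.1: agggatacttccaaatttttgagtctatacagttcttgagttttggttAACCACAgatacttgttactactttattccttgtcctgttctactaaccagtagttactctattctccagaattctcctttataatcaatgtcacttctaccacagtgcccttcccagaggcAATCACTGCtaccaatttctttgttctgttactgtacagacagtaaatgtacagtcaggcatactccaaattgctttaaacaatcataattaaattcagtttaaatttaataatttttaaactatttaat
SRGN.1: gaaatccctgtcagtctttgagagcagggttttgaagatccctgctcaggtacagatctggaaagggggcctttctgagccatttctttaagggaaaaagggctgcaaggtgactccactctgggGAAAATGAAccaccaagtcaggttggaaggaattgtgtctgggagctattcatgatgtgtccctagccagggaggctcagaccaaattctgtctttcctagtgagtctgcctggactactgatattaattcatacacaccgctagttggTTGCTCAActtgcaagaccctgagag
CDK6.1: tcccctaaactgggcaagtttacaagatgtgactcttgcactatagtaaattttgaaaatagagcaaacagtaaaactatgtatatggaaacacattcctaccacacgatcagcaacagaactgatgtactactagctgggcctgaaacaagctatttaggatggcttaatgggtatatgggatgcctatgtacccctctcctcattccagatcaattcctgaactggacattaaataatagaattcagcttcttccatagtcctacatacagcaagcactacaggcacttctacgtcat

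The clusters held 2907 constituents and 2346564 bp, or 21.6% of all distal constituents and 29.4% of all distal H3K27ac length. Covered length ranged from 4353 to 32526 bp with a median of 6342, as the plot of covered length by rank shows. The limit fell in a continuous range: the last 3 inside were GGA2.1 with 4356 bp, S1PR3.1 with 4355 bp and CRADD.1 with 4353 bp, and the first 3 outside were SOCS2.1 with 4348 bp, STK10.1 with 4347 bp and RELT.1 with 4344 bp. A cluster had 2 to 48 constituents (median 8) over a span of 4793 to 132465 bp (median 21666), of which a median of 32.0% was acetylated. Most of a typical cluster was thus gap rather than peak. Constituents of the clusters were wider than other distal regions, with medians of 486 and 378 bp, and 46.0% of their length was called in both DMSO lists against 29.5% elsewhere. Width and the number called follow in part from the choice by covered length.

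**Figure D1:**
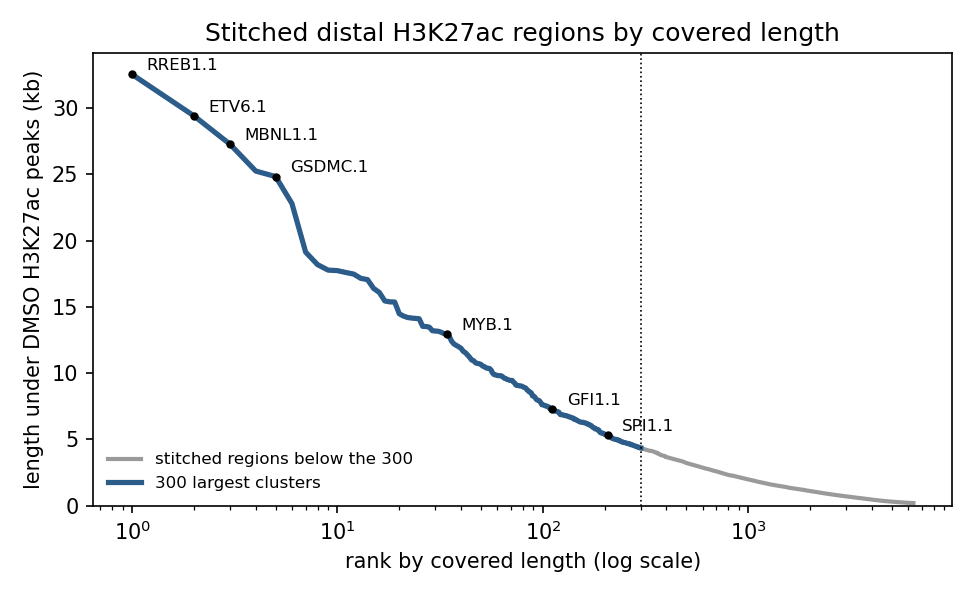
Length under DMSO H3K27ac peaks (kb, vertical axis) of the 6389 stitched distal regions by rank (log axis), with the 300 clusters in blue, the rest in grey and 7 clusters marked. Length falls from 32526 bp to 4353 bp over the 300 with no step at the dotted line that marks the limit.

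By annotation the clusters were mainly intronic. Introns held 72.8% of their covered length, exons 3.70% and intergenic sequence 23.5%, against 68.5%, 5.11% and 26.4% for the other stitched regions. A TSS lay inside the span, outside any constituent, in 74 clusters (24.7%), beside 2.64% of the other stitched regions. Spans of the other regions were much shorter, with a median of 736 bp. A protein-coding TSS lay within 50 kb of 218 clusters (72.7%), near the 69.3% of the other regions. More than 100 kb from one were 40 clusters (13.3%), beside 17.2% of the other regions. The clusters had 274 nearest genes, 20 of which were nearest to more than 1 cluster.

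The clusters nearest to GSDMC, RREB1 and EFCAB2 came in groups of 5, 4 and 3. Those named for GSDMC, a gasdermin gene, together held 62856 bp. They lie on chromosome 8 within the non-coding gene CCDC26, the distal domain known from mouse and human work as a blood-cell enhancer of MYC, and no cluster lay within 50 kb of MYC itself. Chromosome 8 had 32 clusters, 10.7% of the 300 against 6.67% of all stitched regions, more than any other chromosome. MOLM-13 is known to carry extra copies of chromosome 8, and the part of copy number in this count was not tested.

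Among genes with known roles in the myeloid lineage, several transcription factors had a cluster nearby. Of all 20046 protein-coding genes 397, or 1.98%, had a cluster within 50 kb of a TSS. Of 15 myeloid transcription factors 6 did: SPI1 (PU.1, the ETS factor of myeloid commitment), CEBPA (the granulocyte factor), GFI1 (the LSD1-recruiting repressor), RUNX1 (the core-binding factor), FLI1 (an ETS factor) and IKZF1 (Ikaros). The cluster near CEBPA, SLC7A10.1, ended 27552 bp from its TSS and held 11979 bp. CEBPB, CEBPD, CEBPE and IRF8 were among those with none.

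Of 18 MLL-fusion targets and stem-cell regulators 6 had a cluster: CDK6 (the G1 kinase), MYB (the progenitor factor), JMJD1C (a histone demethylase family member), BCL2 (the anti-apoptotic factor), RUNX2 and MEF2C. HOXA5, HOXA7, HOXA9, HOXA10 and MEIS1, the best-known targets of MLL fusions, had none. Of 13 cytokine and chemokine receptors FLT3, CSF1R, CCR2 and TNFRSF1B had one. Of 18 granule, surface and phagocyte genes MPO (myeloperoxidase) and LCP1 (L-plastin) had one, and of 11 retinoic acid receptors and targets RARA had one.

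None of the 9 genes of the CoREST complex and p300/CBP, 5 B-cell markers, 5 T-cell markers, 6 erythroid and megakaryocyte markers and 12 ribosomal protein genes had a cluster within 50 kb. At a background of 1.98%, lists of this size without a cluster are near the share over all genes, and nothing about lineage is read from them. With 100 kb or the gene body in place of 50 kb, PBX3 and ETV6 were added to the MLL-fusion list and RPS3 to the ribosomal list, where the background was 3.52%. The lists hold too few genes for more than these counts.

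The promoters of the 274 nearest genes mostly carried H3K4me3, the mark of active promoters, which the choice of clusters did not use. Within 1 kb of a TSS an H3K4me3 peak was present for 86.1% and 87.2% of them in the DMSO libraries and for 88.3% and 88.0% after Corin. Over all protein-coding genes the shares were 50.7% and 51.9% in DMSO and 52.0% and 52.2% after Corin. The difference between the gene sets was therefore present in all 4 libraries and far larger than that between treatments.

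Coverage in each library was measured as the bases under peaks in the distal span of a cluster, which is its span without the 2 kb around each TSS. H3K27ac covered 1761 and 1727 kb of the clusters in the DMSO libraries and 3255 and 2499 kb in the Corin libraries. The means were 1744 ± 23.9 kb and 2877 ± 534 kb (SD, n = 2 each), 1.65-fold longer after Corin (log2 ratio 0.72, SD 0.27). Both Corin libraries lay above both DMSO libraries, and Corin replicate 1 lay well above replicate 2. No test is given, since the DMSO lists chose the clusters. The whole lists held 17599 and 19995 H3K27ac peaks in DMSO and 34424 and 30029 after Corin, and with the same number of top-scoring peaks taken from each list the log2 ratio was 0.53. For the other stitched regions the log2 ratio was 0.50, and for the 300 regions next in length below the clusters it was 0.68.

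**Figure D2:**
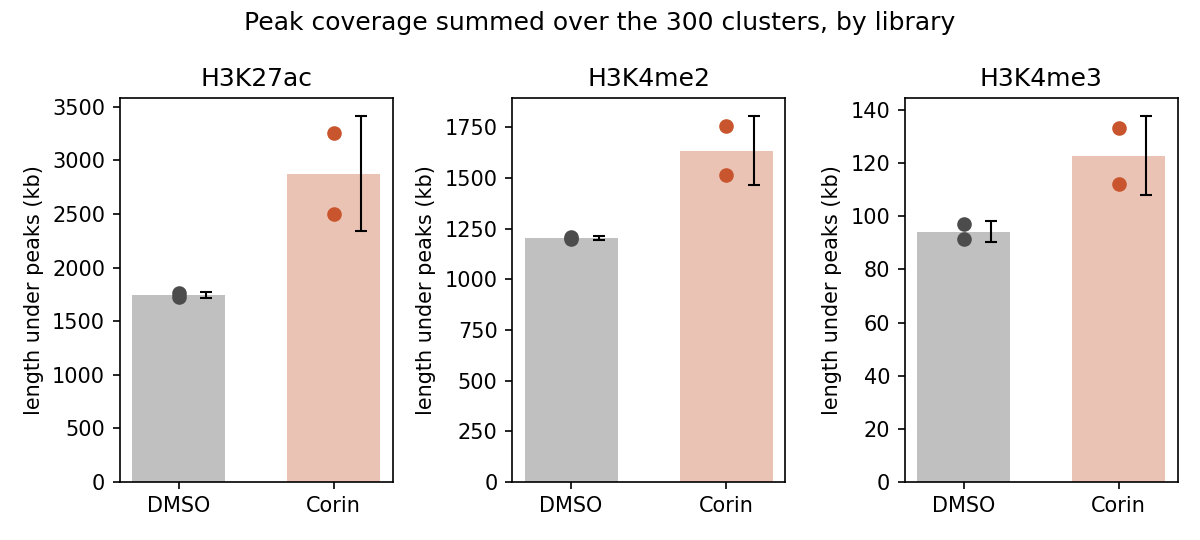
Length under peaks (kb) summed over the distal spans of the 300 clusters for each mark, with each library a point, bars for the means of 2 libraries and error bars for the SD. Both Corin points lie above both DMSO points for every mark, from 91.4 and 97.0 kb to 112 and 133 kb for H3K4me3, and each panel has its own axis.

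Because the pooled DMSO lists fix both the members and their DMSO level, the choice was repeated on 1 DMSO library and the Corin libraries were set against the other, unused one. Clusters chosen on DMSO replicate 1 held 1537 kb of H3K27ac in DMSO replicate 2, and 2900 and 2216 kb in the Corin libraries, 1.66-fold more. Clusters chosen on replicate 2 held 1544 kb in DMSO replicate 1, and 2886 and 2348 kb in the Corin libraries, 1.69-fold more. Of the 300, 277 (92.3%) and 273 (91%) were above the unused DMSO library in both Corin libraries, and 0 were below it in both. Over all stitched regions of each choice 54.7% and 59.7% were above and 4.21% and 3.31% below, and over the 300 next in length 83.7% and 88.3% were above. The shares of the clusters were thus near those of the regions closest in length. The choosing library itself read higher than the unused one, by log2 differences of -0.21 and -0.16 for the unused against the choosing library.

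The choice did not use H3K4me2 or H3K4me3. H3K4me2 covered 1210 and 1198 kb of the clusters in DMSO and 1754 and 1514 kb after Corin. The means were 1204 ± 8.53 kb and 1634 ± 170 kb (SD, n = 2 each), 1.36-fold longer after Corin (log2 ratio 0.44, SD 0.15). An exact two-sided permutation over libraries had p = 0.333, below which 2 libraries against 2 cannot go. The groups did not overlap, and Corin replicate 1 was again the higher of its pair. The whole lists held 30896 and 32299 H3K4me2 peaks in DMSO and 41152 and 40042 after Corin, and at a matched number of peaks the log2 ratio was 0.30.

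H3K4me3, sparse this far from promoters, covered 97.0 and 91.4 kb in DMSO and 133 and 112 kb after Corin. The means were 94.2 ± 3.99 kb and 123 ± 14.8 kb (SD, n = 2 each), 1.30-fold longer after Corin (log2 ratio 0.38, SD 0.19), with an exact permutation p = 0.333. Without Corin replicate 1 the log2 ratio was 0.25, and without DMSO replicate 2 it was 0.34 with an exact permutation p = 0.667. In both marks, then, each Corin library held more covered length than each DMSO library. The mean of the log2 ratios of both marks was 0.41, and the exact test that permuted the treatment within each mark gave p = 0.0556, the smallest of its 36 arrangements. Without DMSO replicate 2 of H3K4me3 that p was 0.111, still by exact permutation, and it stayed at 0.0556 with any other library left out. These permutation tests cannot reach 0.05 with so few libraries.

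The difference in methylation was not shown to be particular to the clusters. The other stitched regions had log2 ratios of 0.48 for H3K4me2 and 0.23 for H3K4me3. The H3K4me2 ratio of the clusters minus that of the other regions was -0.04 (exact permutation p = 0.667), and the H3K4me3 difference was 0.15 (exact permutation p = 0.667). Without 1 library the H3K4me2 value was -0.07 (Corin replicate 1), -0.02 (Corin replicate 2), -0.01 (DMSO replicate 1) or -0.07 (DMSO replicate 2). The H3K4me3 value was 0.09 without Corin replicate 1, 0.24 without DMSO replicate 1 and 0.06 without DMSO replicate 2. The sign for H3K4me2 turned with the 100 largest clusters alone, to 0.0002, and with bases covered in both DMSO lists as the basis of choice, to 0.02.

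Cluster by cluster, H3K27ac was higher in both Corin libraries than in both DMSO libraries for 248 of 300 clusters (82.7%) and lower for 0, beside 24.8% higher and 2.6% lower over all 6389 stitched regions. Among the 300 regions next in length the share higher was 72.3%. Nothing is read from the H3K27ac count, whose contrast the choice used. A call with a library left out is easier to meet, so shares can then only stay or rise. Without Corin replicate 1, 4.67% of clusters were lower, and without DMSO replicate 1, 0.333%. All stitched regions had 10.9% and 24.6% lower without the same libraries. Over the constituents alone 34.3% of clusters were higher, beside 11.8% of all stitched regions and 31.3% of those next in length. At a matched number of peaks 1.33% of clusters were lower, beside 5.71% and 1.67%.

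H3K4me2 was higher in 219 clusters (73.0%) and lower in 1, JARID2.1, beside 33.7% and 0.72% over all stitched regions and 71.7% and 1.67% over the 300 regions next in length. The share higher was thus above the background of all regions and near that of the regions closest in length. At a matched number of peaks 52.7% of clusters were higher, beside 24.5% of all stitched regions and 55.0% of those next in length. Leaving a library out can only keep or raise a share. The share lower was then 8% without Corin replicate 1, 3.33% without DMSO replicate 1 and 1% without DMSO replicate 2. All stitched regions had 4.73%, 4.09% and 3.38% lower, and those next in length 7%, 7% and 3.67%.

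H3K4me3 was higher in 43 clusters (14.3%) and lower in 1, TENM3.1, beside 2.29% and 0.235% over all stitched regions. The regions next in length had 5.67% higher. No H3K4me3 peak was present in any of the 4 libraries in 209 clusters, so few had a mark to compare. Treatment means were equal in these, in 257 of the 300 regions next in length and in 5689 of the 6089 other stitched regions. H3K4me3 was present in DMSO in 72 clusters and in 29 of those next in length. The shares higher are over all regions, with or without a peak. Calls with a library left out, or with libraries paired, are easier to meet, so shares can only stay or rise. Without Corin replicate 2 the share higher was 23%, beside 4.27% of all stitched regions and 9.33% of those next in length. The share lower was 2.33%, 1%, 1.67% and 2.67% without Corin replicate 1, Corin replicate 2, DMSO replicate 1 and DMSO replicate 2, and 1% with libraries of the same replicate number paired. The regions next in length had 2.67%, 1%, 1.67%, 3.67% and 2% lower at these settings, so the clusters were at or below them. Over all stitched regions the share lower ran from 0.517% to 1.19%, and the clusters were above it at each of these settings.

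Both H3K27ac and H3K4me2 were higher in 191 clusters (63.7%), beside 15.6% of all stitched regions and 54.3% of the 300 next in length. All 3 marks were higher in 36 clusters (12%), beside 0.939% and 3.33%, and no mark in 24 (8%), beside 56.5% and 10.3%. These counts include H3K27ac, which chose the clusters, and are a description. In single clusters the ratio of Corin to DMSO means had a median of 1.65 for H3K27ac, from 0.908 to 3.31, and of 1.34 for H3K4me2 over the 293 clusters with H3K4me2 in DMSO. The scatter of clusters shows nearly all points on 1 side of the diagonal in both marks.

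**Figure D3:**
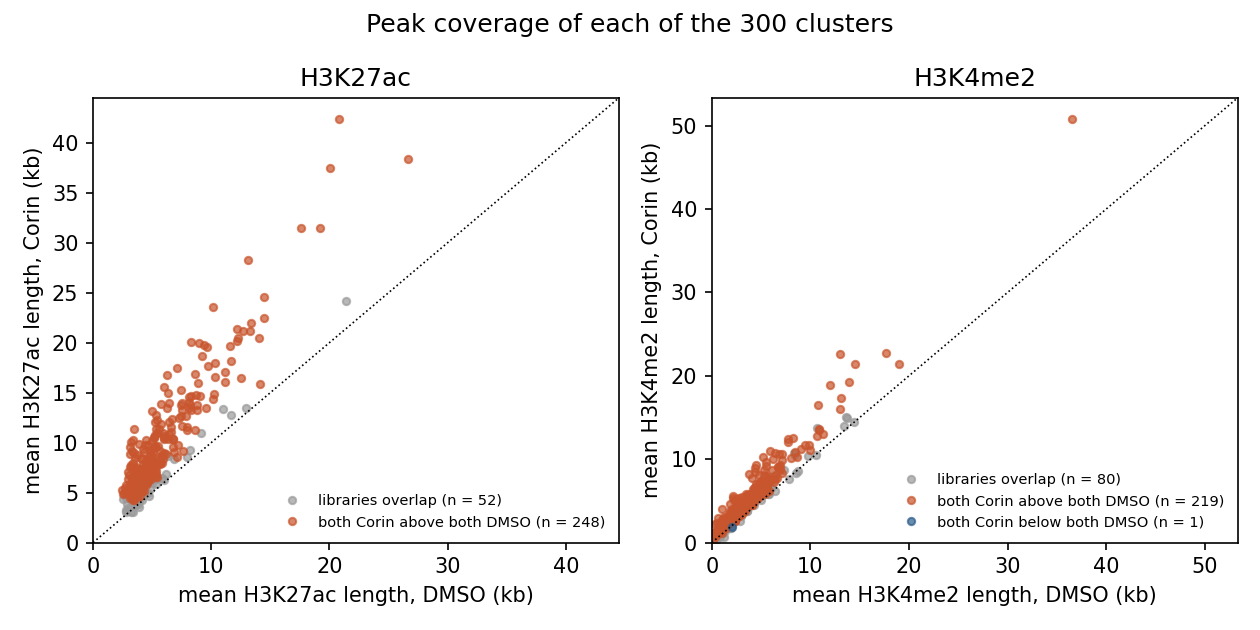
Mean length under peaks (kb) of each of the 300 clusters in DMSO (horizontal axis) and Corin (vertical axis) for H3K27ac and H3K4me2, with the dotted line for equal values and colours for whether the libraries overlap. For H3K27ac 248 clusters have both Corin libraries above both DMSO libraries and 52 overlap, and for H3K4me2 the numbers are 219 and 80, with 1 lower.

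The 10 largest clusters differed widely in methylation, with acetylated lengths of the same order. RREB1.1 (chr6:7100048-7173349), over introns of the zinc-finger factor RREB1, had 34 constituents and the most covered length, 32526 bp. H3K27ac there covered 29171 and 24174 bp in DMSO and 43136 and 33520 bp after Corin. H3K4me2 covered 20073 and 17974 bp in DMSO and 22169 and 20710 bp after Corin. Both marks were higher after Corin without overlap, the methylation by little.

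ETV6.1 (chr12:11730254-11813730) lies in introns of ETV6, an ETS-family repressor often rearranged in leukaemia. H3K27ac covered 21202 and 20393 bp in DMSO and 46609 and 38093 bp after Corin, the largest H3K27ac difference of the 300 clusters at 21553.5 bp. H3K4me2 covered 6653 and 6079 bp in DMSO and 8418 and 7431 bp after Corin. The cluster thus carried far less H3K4me2 than RREB1.1, and no H3K4me3 in any of the 4 libraries.

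MBNL1.1 (chr3:152192148-152324612), around the splicing regulator MBNL1, had the longest span, the most constituents (48) and the most H3K4me2. Its H3K4me2 length was 41499 and 31483 bp in DMSO and 56931 and 44601 bp after Corin, a mean difference of 14275 bp and the largest of the 300. For H3K27ac the lengths were 23756 and 16284 bp in DMSO and 50003 and 24961 bp after Corin. Corin replicate 2 lay just above the higher DMSO library in both marks, and Corin replicate 1 far above. At a matched number of peaks the mean H3K4me2 difference was 5901.5 bp, below the 6853.5 bp of ELF1.1 and the 5956.5 bp of SRGN.1. Over constituents alone the difference of MBNL1.1 was 3328.5 bp, below the 5877.5 bp of GSDMC.1. Without Corin replicate 1 the difference of MBNL1.1 was 8110 bp.

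AHRR.1 (chr5:359863-440141), over the aryl hydrocarbon receptor repressor gene, had little methylation. H3K4me2 there covered 2330 and 3739 bp in DMSO and 4450 and 2889 bp after Corin, so that the groups overlapped. Its H3K27ac length was 16631 and 21795 bp in DMSO and 31583 and 31249 bp after Corin, well apart.

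SRGN.1 (chr10:69043963-69096560), around the start of the granule proteoglycan gene serglycin, differed in all 3 marks. It had H3K27ac lengths of 16827 and 18424 bp in DMSO and 34219 and 28736 bp after Corin. Its H3K4me2 length was 13504 and 15484 bp in DMSO and 23673 and 19161 bp after Corin. Its H3K4me3 length was 2525 and 2655 bp in DMSO and 4707 and 4277 bp after Corin. No group overlapped.

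CDK6.1 (chr7:92720003-92840553) covers introns of CDK6. Its H3K4me2 length was 10185 and 11437 bp in DMSO and 17608 and 15354 bp after Corin, without overlap. Its H3K27ac length was 13538 and 12742 bp in DMSO and 35654 and 20903 bp after Corin, but over its constituents alone the mean was lower after Corin by 653 bp (a difference of -653 bp). Since constituents are defined by DMSO H3K27ac, nothing is read from that split. RNF24.1, MACROH2A1.1 and CNOT6L.1 completed the 10 largest, each higher in H3K27ac and H3K4me2 without overlap, and RNF24.1 had 5378 and 5090 bp of H3K4me2 in DMSO against 10373 and 10194 bp after Corin.

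**Figure D4:**
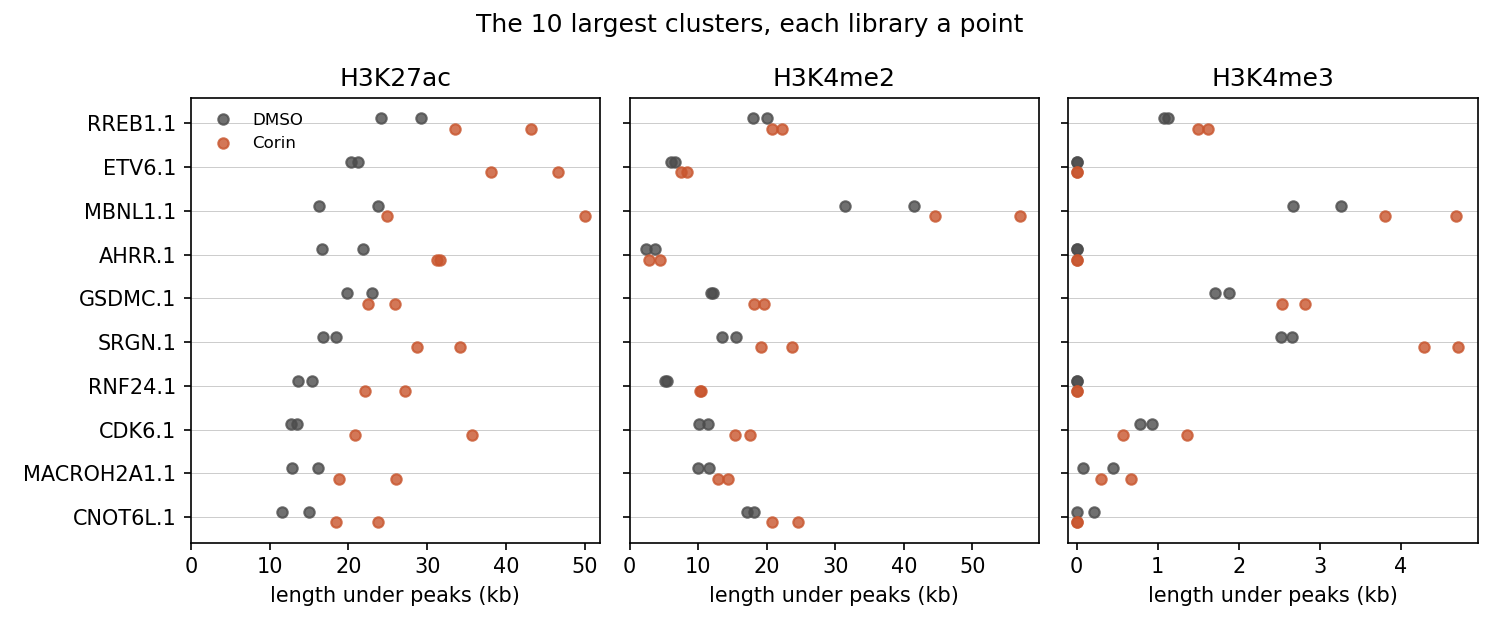
Length under peaks (kb, horizontal axes that differ between panels) of the 10 largest clusters for each mark, with each library a point, DMSO in grey and Corin in orange. Groups separate for H3K27ac in all but GSDMC.1 and for H3K4me2 in all but AHRR.1, and MBNL1.1 has the most H3K4me2, up to 56931 bp.

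The 5 clusters of the distal MYC domain differed widely in H3K4me2. GSDMC.1 (chr8:129511554-129557230), at rank 5 by covered length and 220357 bp from the nearest coding TSS, had 22981 and 19883 bp of H3K27ac in DMSO and 25859 and 22546 bp after Corin. Its H3K4me2 length was 12216 and 11840 bp in DMSO and 19581 and 18174 bp after Corin, and its H3K4me3 length was 1704 and 1878 bp in DMSO and 2820 and 2534 bp after Corin. Acetylated length thus overlapped between treatments while both methylation marks separated.

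GSDMC.2 had 10136 and 13226 bp of H3K27ac in DMSO and 13617 and 11806 bp after Corin. H3K4me2 was nearly absent from it, with 227 and 0 bp in DMSO and 0 bp in both Corin libraries. GSDMC.3 had 13341 and 12510 bp of H3K27ac in DMSO and 14032 and 12952 bp after Corin, and its H3K4me2 length was 1028 and 1243 bp in DMSO and 3089 and 2209 bp after Corin. GSDMC.4 and GSDMC.5 had no H3K4me2 in DMSO and 1568 and 677 bp, and 1296 and 197 bp, after Corin. In all 5 the H3K27ac groups overlapped, as they did in 52 of the 300 clusters and in 72.6% of all stitched regions, and nothing is read from this, since the choice used that mark. In GSDMC.3 the 14151 covered bp lay in a span of 15566 bp. GSDMC.2 to GSDMC.5 were singled out after their values were seen.

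Of the 19 clusters within 50 kb of a gene of the lists, 17 were higher in H3K4me2 and 18 in H3K27ac, and 0 were lower in either. Over all 300 clusters the shares higher were 73% and 82.7%, so these few lay near the clusters as a whole, and H3K27ac is the mark that chose them. SPI1.1 and RUNX2.1 overlapped in H3K4me2 and MEF2C.1 in H3K27ac. SLC7A10.1, near CEBPA, had 5829 and 7614 bp of H3K4me2 in DMSO and 8735 and 9426 bp after Corin, without overlap. GFI1.1 had 4794 and 4032 bp of H3K4me2 in DMSO and 7728 and 5589 bp after Corin, and its H3K27ac length was 6016 and 4421 bp in DMSO and 13842 and 7634 bp after Corin. IKZF1.1 had 956 and 1390 bp of H3K4me2 in DMSO and 2624 and 3062 bp after Corin. Each was higher after Corin in both marks. ZEB2.1, nearest to the zinc-finger repressor gene ZEB2 but 140347 bp from its TSS, had 5926 and 4523 bp of H3K4me2 in DMSO and 8114 and 5432 bp after Corin, which overlap.

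SPI1.1 differed from these in H3K4me2, with 1400 and 1762 bp in DMSO and 1633 and 1811 bp after Corin, which overlap. Its H3K27ac groups were apart, at 2129 and 4865 bp in DMSO and 6442 and 6647 bp after Corin. H3K4me3 there was 0 bp in both DMSO libraries and 631 and 819 bp after Corin. RUNX1.1 had 2034 and 2710 bp of H3K4me2 in DMSO and 4489 and 3730 bp after Corin, a direction that turned at a matched number of peaks, to -78 bp. SPI1.1, RUNX1.1 and, further down, BCL2.1, RUNX2.1 and MEF2C.1 were named after their values were seen.

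Among the leukaemia-associated genes MYB.1 had 7483 and 6690 bp of H3K4me2 in DMSO and 10056 and 9742 bp after Corin. JMJD1C.1 had 14444 and 11740 bp in DMSO and 19901 and 14743 bp after Corin. BCL2.1 had 521 and 1631 bp in DMSO and 2280 and 1871 bp after Corin, but at a matched number of peaks the mean difference was -140.5 bp. H3K4me2 was higher in all 3 without overlap in the full lists.

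RUNX2.1, at the runt-family gene RUNX2, had 2430 and 2026 bp of H3K4me2 in DMSO and 3066 and 2161 bp after Corin, which overlap. Its H3K27ac length was 3391 and 3286 bp in DMSO and 7105 and 3951 bp after Corin, apart in the full lists, but the mean difference was -501 bp at a matched number of peaks and -186.5 bp over constituents alone. MEF2C.1, at a MADS-box factor gene, had 3364 and 2827 bp of H3K4me2 in DMSO and 6043 and 4951 bp after Corin, without overlap. For H3K27ac it had 4069 and 1812 bp in DMSO and 6394 and 2600 bp after Corin, which overlap.

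Of the receptor genes, CSF1R.1, at the receptor of macrophage colony-stimulating factor, had 0 and 689 bp of H3K4me2 in DMSO and 2112 and 2375 bp after Corin. Its H3K27ac length was 2909 and 3590 bp in DMSO and 9675 and 10347 bp after Corin. TNFRSF1B.1 had 3600 and 5081 bp of H3K4me2 in DMSO and 8822 and 8093 bp after Corin. Both were higher after Corin in both marks.

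FLT3.1 began from a high level, with 6763 and 5871 bp of H3K4me2 in DMSO and 7713 and 6871 bp after Corin, and over its constituents alone the mean difference was -69.5 bp. CCR2.1 had 1588 and 1025 bp in DMSO and 2519 and 2012 bp after Corin, with a mean difference of -574.5 bp at a matched number of peaks. For both the direction thus depended on the setting.

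Of the other clusters of the lists, 3 lay at genes of mature myeloid cells and at a nuclear receptor. MPO.1 had 1795 and 1797 bp in DMSO and 2207 and 2463 bp after Corin. LCP1.1 had 9987 and 9878 bp in DMSO and 11692 and 10556 bp after Corin. RARA.1, at the retinoic acid receptor alpha gene, had 7624 and 6151 bp in DMSO and 9350 and 9139 bp after Corin. The groups of these 3 and of FLT3.1 and CCR2.1 did not overlap in the full lists.

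Exceptions were few. JARID2.1 (chr6:14896875-14933203), 312866 bp from the nearest coding TSS, had 2032 and 2067 bp of H3K4me2 in DMSO and 1905 and 1763 bp after Corin, lower by little while its H3K27ac was higher. TENM3.1 (chr4:180047287-180102670) lies 2140732 bp from a coding TSS in a gene desert. Its H3K4me3 length was 3049 and 2999 bp in DMSO and 2633 and 2277 bp after Corin, while its H3K27ac and H3K4me2 groups overlapped.

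The clusters with the largest H3K4me3 differences were P2RY2.1, SRGN.1, RTN4IP1.1, GSE1.1 and MBNL1.1. P2RY2.1, at a purinergic receptor gene, had 1022 and 1339 bp of H3K4me3 in DMSO and 3469 and 3452 bp after Corin. RTN4IP1.1, inside CRYBG1, had 1208 and 1187 bp in DMSO and 3283 and 2333 bp after Corin. GSE1.1, in a gene whose protein is found with the CoREST complex, had 5178 and 5098 bp in DMSO and 6971 and 6493 bp after Corin. In all 3 the Corin libraries lay clearly above.

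Coverage was also measured apart in the constituents and in the gaps of the clusters. Within the constituents H3K27ac covered a mean of 1713 ± 21.3 kb in DMSO and 1930 ± 194 kb after Corin (SD, n = 2 each), a log2 ratio of 0.17. The gaps hold almost no DMSO H3K27ac by construction, so for this mark the split was measured again with clusters chosen on 1 DMSO library, an analysis added after the data were seen. Against the unused library the constituents had log2 ratios of 0.44 and 0.47 and the gaps of 1.31 and 1.29. The added length was 391 and 424 kb in constituents and 629 and 649 kb in gaps, without allowance for the width of either.

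H3K4me2, which the choice did not use, had a larger log2 ratio in the gaps than in the constituents. Constituents had 862 and 883 kb in DMSO and 1158 and 1056 kb after Corin, for a log2 ratio of 0.34 (SD 0.10). Gaps had 348 and 315 kb in DMSO and 596 and 459 kb after Corin, for a log2 ratio of 0.67 (SD 0.29). They held 45.6% of the added length but were wider in sum, at 5306 kb against 2346564 bp of constituents. As a share of bases, H3K4me2 covered 6.56% and 5.94% of gaps in DMSO and 11.2% and 8.64% after Corin. The shares of constituents were 36.8% and 37.6% in DMSO and 49.3% and 45.0% after Corin. The other stitched regions showed nearly the same ratios, 0.39 in constituents and 0.74 in gaps. For H3K4me3 the ratio was 0.45 in the constituents of the clusters and 0.26 in their gaps. Differences between gaps and constituents, and between marks, were not tested.

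**Figure D5:**
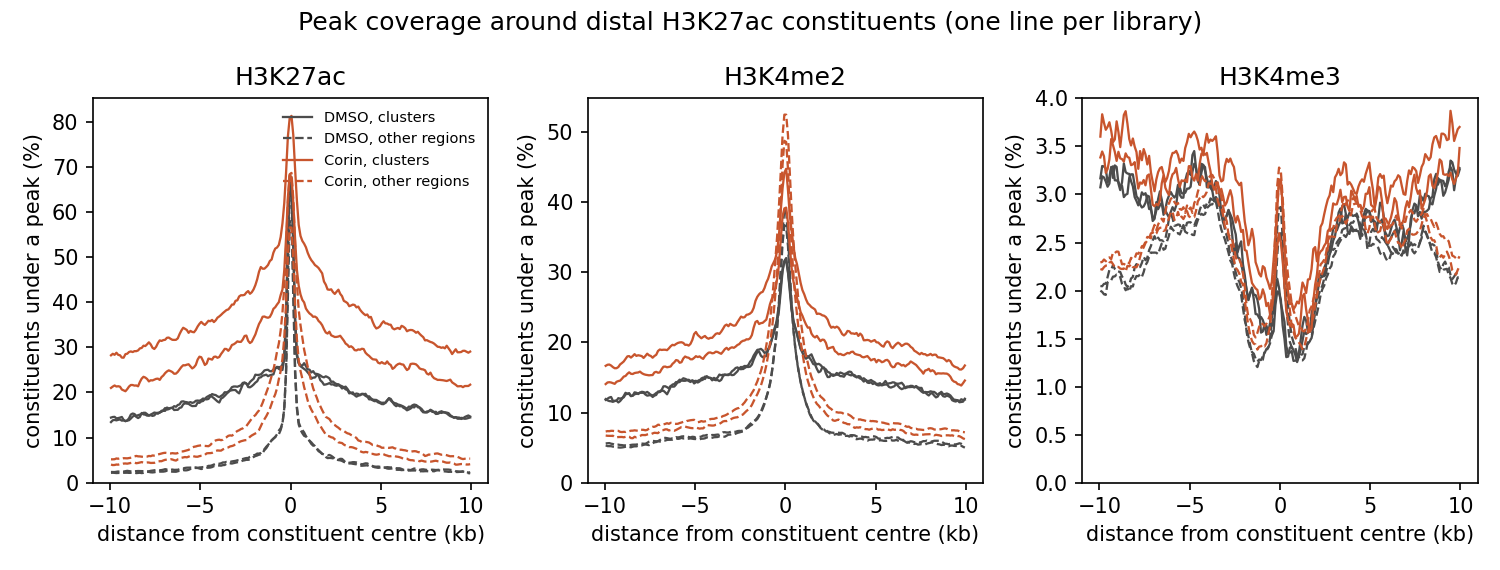
Percent of distal H3K27ac constituents under a peak (vertical axis) by distance from the constituent centre (kb), with 1 line per library, solid for constituents of the 300 clusters and dashed for the other distal regions. At 2 kb from the centre H3K4me2 covers 16.5% and 16.4% in DMSO and 23.9% and 20.4% after Corin in the clusters, and the centre itself is covered less often in the clusters than elsewhere.

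Summed over constituents, a smaller share of length carried H3K4me2 in the clusters than in other distal regions, whereas the median region in DMSO had the larger share in the clusters. Over summed length H3K4me2 covered 36.8% and 37.6% of constituent length in DMSO and 49.3% and 45.0% after Corin, against 40.3% and 42.3%, and 56.4% and 52.1%, in other regions. The difference was -3.56 and -4.70 percentage points in DMSO and -7.06 and -7.08 after Corin, with the clusters lower in 4 of 4 libraries. Its mean was -5.60 ± 1.76 (SD, n = 4 libraries), a spread that includes the difference between treatments. The exact sign-flip test, which pools both treatments, gave p = 0.125, the smallest it allows. Counting constituents covered over at least 50% of their length gave -8.34 points ± 2.00 (exact sign-flip p = 0.125). For H3K4me3 the difference was -0.36 points ± 0.34 (exact sign-flip p = 0.25). Counted by constituents at least 50% covered, the H3K4me3 difference was -0.82 points ± 0.23 (exact sign-flip p = 0.125). Clusters and other regions of a library share its depth and peak threshold.

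In single clusters the share of constituent length with H3K4me2 in DMSO ran from 0% to 96.6%, with a median of 37.2% against 27.1% for the other stitched regions. After Corin the medians were 49.8% and 50%. Many other regions had no H3K4me2 at all, since their lower quartile was 0% in both treatments, while that of the clusters was 19.5% in DMSO. At the upper quartile the order turned, with 53.9% in the clusters and 69.8% in the other regions in DMSO, so the other regions were more spread at both ends. In 22 clusters it was under 10% in both DMSO libraries, the largest being COL23A1.1, GSDMC.2, GSDMC.3, DENND10.1 and ATP8B4.1. COL23A1.1, in introns of a collagen gene, had 14637 and 13439 bp of H3K27ac in DMSO beside only 1086 and 1017 bp of H3K4me2. These 22 lay a median of 60077.5 bp from a coding TSS, 1 had a TSS inside its span, and none had H3K4me3 in DMSO. ZNF438.1, FRG2C.1, TBC1D5.2 and ESF1.1 had no H3K4me2 peak in any of the 4 libraries.

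At the other end 12 clusters were over 80% in both DMSO libraries, among them PPARA.1, SKIDA1.1, LCP1.1, CDT1.1, HDAC4.1, CELF2.1 and FLT3.1. They lay a median of 3142.5 bp from a coding TSS, 4 had a TSS inside, and 8 had H3K4me3 in DMSO. Over all 300 clusters the median distance was 16819 bp, 74 (24.7%) had a TSS inside and 72 had H3K4me3 in DMSO, so the share with a TSS inside, 33.3% of these 12, was near that of all clusters. PPARA.1 had 14557 and 14335 bp of H3K4me2 and 9659 and 9414 bp of H3K4me3 in DMSO, and 14726 and 14170 bp, and 10209 and 9868 bp, after Corin. In the median the highly methylated clusters thus lay much nearer to start sites than the sparsely methylated ones. These 2 classes were set on H3K4me2 after the values were seen, and no test is given for them.

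Most of the same loci were again among the largest after Corin. Applying the same rule to the 2 Corin H3K27ac lists gave 300 clusters that overlapped 220 of the 300 DMSO clusters, among them 97 of the 100 largest and 42 of the 100 smallest. This is 73.3%, beside 26% of the 300 regions next in length and 7.09% of all stitched regions. At a matched number of peaks 234 were found again (78%), beside 17.3% and 5.26%. Both lists were ranked by H3K27ac length, so a decline with rank follows in part from the rule. Every DMSO cluster was overlapped by some stitched Corin region, and so were 99.3% of the regions next in length and 85.3% of all stitched regions, which is near the share of the clusters. Of the Corin clusters 84 overlapped no DMSO cluster, the largest lying nearest to HRH2, CCDC12, ZFP36L2, ATXN1 and PIK3AP1. The one at HRH2, the histamine H2 receptor gene, had 5105 and 7849 bp of H3K27ac in DMSO and 20184 and 17989 bp after Corin, measured over the span of the Corin cluster, so it was partly acetylated before treatment.

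Motif frequencies in the constituents were near those of other distal H3K27ac regions. Motifs were searched on both strands in the central 300 bp of each constituent, of each other distal region and of each region at a promoter, and matches of different motifs may share bases. The C/EBP motif TTGCNNAA was in 15.7% of 2907 constituents, 16.0% of 10529 other distal regions and 8.93% of 11277 promoter regions. AP-1 (TGANTCA) was in 11.1%, 11.8% and 5.21%, GFI1 (AATCNCNGC) in 10.7%, 10.5% and 5.84%, and RUNX (TGTGGTT) in 6.02%, 7.29% and 3.38%. These motifs were thus more frequent in both distal sets than at promoters.

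PU.1 (GAGGAAGT) was in 3.65% of constituents, 4.36% of other distal regions and 2.45% of promoter regions. The MEIS-HOXA9 motif TGATTNAT was in 4.61%, 3.54% and 1.28%, and STAT (TTCNNNGAA) in 9.67%, 8.62% and 6.51%. The IRF motif GAAANNGAA was in 10.6% of constituents and 10.8% of other distal regions. MYB (AACNGTT) was in 5.54% of constituents and 5.31% of other distal regions. The motif of GATA factors, searched as AGATAAG, was in 4.13% of constituents and 2.15% of promoter regions. The E-box CACGTG was in 3.92% of constituents and 4.53% of other distal regions, below its 7.19% at promoter regions. Median GC content was 46.7% in constituents, 47.7% in other distal regions and 60.7% at promoters, and short motifs depend on it.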

How the data were processed

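CUT&RUN peak lists of 12 libraries were used, and 7 libraries of the series were not analysed here: 4 from cells given Corin together with all-trans retinoic acid, 2 IgG controls and 1 for LSD1, so no control antibody entered. Trim Galore, Bowtie2, Picard and MACS2 and the builds GRCh38 and hg38 are named in the submitters' processing notes, and their settings are not given in the sources used here. The authors deposited 1 list per library with positions and a score, a whole number of at least 50 whose definition is not stated, and peaks were ranked by it within 1 list at a time. The labels give a minimum of 5000000 reads per library and the depth is otherwise unknown, so no interval that needs it is given. Positions are on hg38, counted from 1, and 0 of 292523 peaks ended past a chromosome end.

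Peaks were intersected with clusters in Python 3.11.15, checked against bedtools 2.31.1 and tested on simulated data. Start sites were the 84610 TSS positions of GENCODE release 44 basic transcripts (protein-coding or long non-coding). Coverage was compared with exact two-sided permutation tests over libraries, and the SD of a log2 ratio combines the spread of both groups. Samples were grouped by their titles. Deviations of same-numbered Corin and DMSO libraries correlated over the stitched regions (H3K27ac 0.361, H3K4me2 0.422, H3K4me3 0.265). Over the clusters alone the correlations were higher, at 0.509, 0.623 and 0.440. The titles give the replicate numbers but not what same-numbered libraries share. The clusters named were the 10 largest, up to 4 per gene list, the 5 largest differences each way per mark and the 3 on each side of the limit. Clusters outside this rule were named after their values were seen: the others near a list gene (SPI1.1, RUNX1.1, BCL2.1, RUNX2.1, MEF2C.1), GSDMC.2 to GSDMC.5 and those of the H3K4me2 classes. The sequence of 1 cluster that the rule selects is not reported here. The members, lists and rules were chosen with earlier results of these data known. Alternatives were matched peak numbers, a minimum score of 100, constituents alone, the 100 largest clusters, bases in both DMSO lists, choice on 1 DMSO library, each library left out and same-numbered libraries paired.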

Additional observations from a re-analysis of the deposited data

How the results depend on the processing

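Of the alternative values of the 16 main results 115 kept the direction or, for counts and shares, stayed within 1.5 times, though 10 of these differed from the reported value by over 1.5 times in size. A further 20 moved past those bounds or past 1 SD, and 2 changed sign. For single clusters and lists 505 kept the direction within 1 SD of the replicates or stayed within 1.5 times, 82 of them differing by over 1.5 times, 68 moved and 11 changed sign. MBNL1.1 had an H3K27ac difference of 17462 bp that was 1233.5 bp over constituents alone. H3K27ac over constituents alone gave a log2 ratio of 0.17 and 34.3% of clusters higher, beside 11.8% of all stitched regions. At a matched number of peaks 1.33% of clusters were lower in H3K27ac and 2% in H3K4me2, beside 5.71% and 1.67% of all regions. The 100 largest clusters had 1% lower in H3K4me2 and 1% in H3K4me3, beside 0.72% and 0.235% of all stitched regions. Those from bases in both DMSO lists had 1% and 0.667% lower, beside 1.13% and 0.258%. At a minimum score of 100, 0.667% were lower in H3K4me3, beside 0.203% of all stitched regions and 0.667% of those next in length. The H3K4me2 ratio of clusters minus other regions changed sign with the 100 largest (0.000218) and with bases in both lists (0.0242).

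With each library left out in turn, a call is easier to meet, so shares can only stay or rise. The share lower ran from 0% to 4.67% for H3K27ac, 0.333% to 8% for H3K4me2 and 1% to 2.67% for H3K4me3. The share higher for H3K4me3 ran from 17% to 23%. In single clusters the mean difference turned negative over constituents alone for H3K27ac at CDK6.1 (-653 bp) and RUNX2.1 (-186.5 bp) and for H3K4me2 at FLT3.1 (-69.5 bp). At a matched number of peaks it did so for H3K27ac at LCP1.1 (-709.5 bp) and RUNX2.1 (-501 bp) and for H3K4me2 at BCL2.1 (-140.5 bp), GSE1.1 (-7 bp), RUNX1.1 (-78 bp) and CCR2.1 (-574.5 bp). At a minimum score of 100 it did so for H3K4me2 at BCL2.1 (-140.5 bp) and CCR2.1 (-10 bp). The cause was not tested.

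In the replicate block, which pairs libraries of the same number, H3K27ac had a log2 ratio of 0.71, H3K4me2 of 0.44 and H3K4me3 of 0.38, the methylation marks with an exact sign-flip p = 0.5, the smallest it allows. A paired call is easier to meet too, so shares can only stay or rise. Shares higher were 92.7%, 84% and 17.3%. All stitched regions had 31.6%, 39.3% and 2.82%, and those next in length 82.7%, 79.3% and 5.67%. In H3K4me3 1% of clusters were lower, beside 0.517% and 2%. Without reads, depth limits each list to what passed its caller, and a longer list cannot be told apart from a stronger mark.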
